A study of Arabidopsis thaliana with 4 samples.

Results

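Transcripts of 5 cold- and abscisic acid-inducible genes, KIN1, KIN2, COR15A, COR15B and COR47, were followed in Arabidopsis thaliana (ecotype Columbia, Col-0) under feeding by western flower thrips (Frankliniella occidentalis). Each gene was represented by the cDNA clone that the array's table of gene names gives for it, so the 5 genes were 5 of the 1182 clones and 5 of the 415 named clones on the array. All 5 had enough signal in either dye to be among the 806 tested clones. KIN1 and COR15B met this through the fed dye only, so their means come from arrays chosen by fed signal. The data are 4 two-colour spotted cDNA arrays, taken after 2, 5, 10 and 24 h of feeding with 1 array per time. On every array the fed plants were labelled with the red dye Cy5 and untreated plants grown in parallel with the green dye Cy3, without a dye swap. Plants of both groups were wild type, grown in soil for 21 days at 22 °C. Fed plants had been exposed, in a ventilated acrylic cylinder, to 25 adult female thrips that had been starved for 3 h. The labels do not say whether the untreated plants were also placed in a cylinder. They call the tissue leaves in one place and the whole plant without the root in another. Per the labels, a sample held 30 to 70 plants and 3 to 4 experiments were pooled before RNA extraction. Each array therefore compared a fed pool with an untreated pool. The labels do not say whether 1 untreated pool was shared by the 4 arrays. The labels also mention 2 to 3 arrays run on the same RNA, of which 1 per time is used here, so the values of a time have no replicate array.

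Plants that are cold or short of water switch on a set of small, very hydrophilic proteins that protect membranes and other proteins. Cold acts largely through the CBF/DREB1 transcription factors, which bind the C-repeat or dehydration-responsive element, and drought acts largely through the hormone abscisic acid, whose factors bind the ABA-responsive element. KIN1 and KIN2 are closely related small proteins of this set. COR15A and COR15B are closely related proteins of the chloroplast stroma that stabilise membranes on freezing. COR47 is a dehydrin, a member of another family of water-stress proteins. In the TAIR10.1 annotation KIN1 (AT5G15960) and KIN2 (AT5G15970) are direct neighbours, as are COR15B (AT2G42530) and COR15A (AT2G42540). COR47 is AT1G20440 and lies next to ERD10, a dehydrin gene. Long cDNA probes of such close relatives may share signal, so KIN1 cannot be fully separated from KIN2, nor COR15A from COR15B.

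KIN2 and COR15A read higher in fed than in untreated plants, and both stood highest at 10 h among the times at which they could be measured. Without a dye swap, a dye effect particular to a clone cannot be told apart from an effect of feeding on its mean ratio. COR47 lay between 0.92 and 1.24 times the middle clone until 10 h and at 0.599 times at 24 h. KIN1 and COR15B were too dim in untreated plants for a firm ratio, although the fed plants gave a clear signal for both at 10 h. In tissue RNA such as this, a change in the number of cells of a type and a change in RNA per cell cannot be told apart. Ratios below are log2 of fed over untreated after a loess correction that sets the middle of the clones near 0. Since the clones were chosen for a link to stress, a value is relative to that middle clone. Each clone was spotted in duplicate, and the SD between its spots is technical.

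The intensity of each spot, after subtraction of the local background, is given in the scanner's linear units, and these are not compared between genes. For KIN2 in untreated plants the duplicate spots read 211 and 216 at 2 h, 253 and 122 at 5 h, 99 and 127 at 10 h, and 146 and 307 at 24 h. In fed plants they read 670 and 976 at 2 h, 1463 and 985 at 5 h, 2438 and 3171 at 10 h, and 524 and 442 at 24 h. The fed channel thus exceeded the untreated channel in all 8 spots, most widely at 10 h and least at 24 h. These readings precede loess, and the fed dye was also the brighter for the typical clone. In order of time, the median foreground of usable clone spots was 1372, 2063, 1535.5 and 1325 in the fed dye. In the untreated dye it was 1096.5, 1150, 895 and 956. A brighter fed dye is thus not by itself a difference between plants. At 10 h the untreated channel of KIN2 was not above background, defined as 2 background SD over the local background, as for 10.0% of the 739 clones measured then. In raw units its average was lowest at 10 h. After quantile scaling of the average intensities between arrays its lowest log2 level was at 5 h (7.74, against 7.94 at 10 h). Negative control spots, 26 on each array, read between -63 and 58 in the fed channel and between -20 and 93 in the untreated channel over the 4 arrays.

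**Figure D1:**
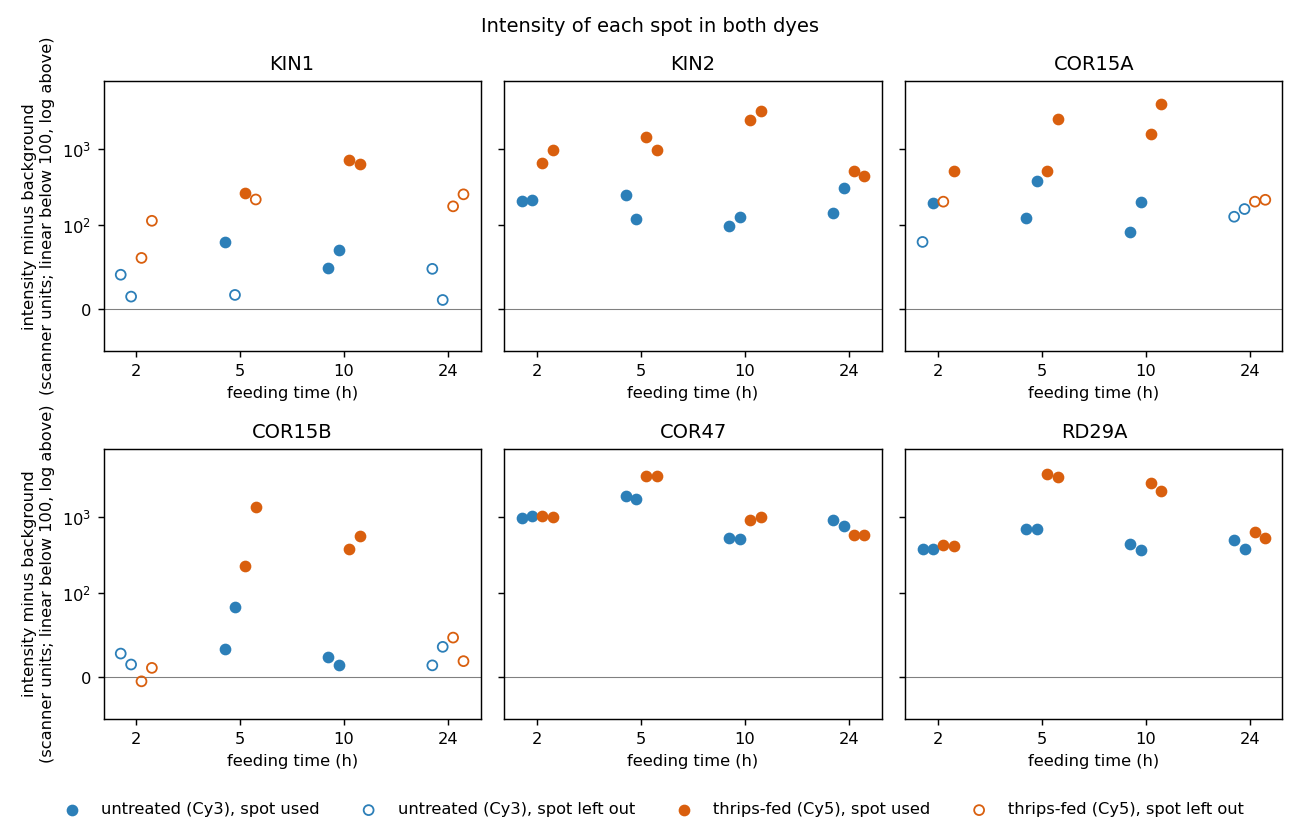
Intensity minus local background of each duplicate spot in untreated (Cy3, blue) and thrips-fed plants (Cy5, orange) by feeding time, for the 5 genes and RD29A. The vertical axis is linear below 100 and logarithmic above, and open circles mark spots left out because of the scanner's quality flag. KIN2 and COR15A show the widest gap between dyes at 10 h, where fed KIN2 spots read 2438 and 3171. Readings are shown before loess, so the offset between dyes is not corrected.

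KIN2 had a log2 ratio of 1.74 ± 0.39 (SD of 2 spots) at 2 h and 1.77 ± 0.06 at 5 h. It reached 3.47 ± 0.03 at 10 h, and its value at 24 h was 0.48 ± 0.49. The untreated signal at 10 h was not above background, so the size of that value is not firm. Under this correction the fed level was 9.31-fold over a floor, the lowest untreated level of any clone counted as above background on that array. That floor is not the detection limit of the KIN2 spots, so 9.31-fold is not a firm minimum. The 10 h log2 ratio was 3.05 without background subtraction and 3.19 with print-tip loess, both under that fold. At 24 h the ratio was no larger than the SD between its spots, which gave 0.82 and 0.13. Over the time course the mean was 1.86 ± 0.44 (moderated SE, 4 arrays, 95% interval 0.83 to 2.90), a 3.64-fold difference, positive on 4 of 4 arrays (limma adjusted p = 0.0132). At 10 h, 2.71% of the 739 clones measured had a higher ratio than KIN2, against 9.19% at 2 h, 9.45% at 5 h and 30.6% at 24 h. Without the 5 h array the mean was 1.90 and did not pass (limma adjusted p = 0.0536). Within slides, the mean of 2 h and 5 h was 1.76 (limma adjusted p = 0.0170) and that of 10 h and 24 h was 1.97 (limma adjusted p = 0.120).

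For COR15A, 1 spot at 2 h and both spots at 24 h carried a low-quality flag and were left out. After loess these left-out spots lay below 0, at -0.72 at 2 h and at -1.07 and -1.01 at 24 h. Before loess their fed channel was the brighter. The mean below does not include them. The remaining spots in untreated plants read 194 at 2 h, 123 and 381 at 5 h, and 92 and 203 at 10 h. In fed plants the same spots read 524 at 2 h, 520 and 2533 at 5 h, and 1621 and 3934 at 10 h. Again the fed channel was the brighter in every spot used, and the 10 h array showed the widest gap, both read before the dye offset was corrected. The duplicate spots differed in brightness in both dyes, the second being the brighter at 5 h and 10 h. The log2 ratio was 1.07 at 2 h from 1 spot, 1.34 ± 0.84 at 5 h and 3.05 ± 0.19 (SD of 2 spots) at 10 h. The mean over these 3 arrays was 1.82 ± 0.42 (moderated SE, 95% interval 0.80 to 2.84), a 3.52-fold difference (limma adjusted p = 0.0162). It did not pass without the 5 h array, at 2.06 (limma adjusted p = 0.0513). The untreated signal at 10 h was above background in 1 of 2 spots.

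**Figure D2:**
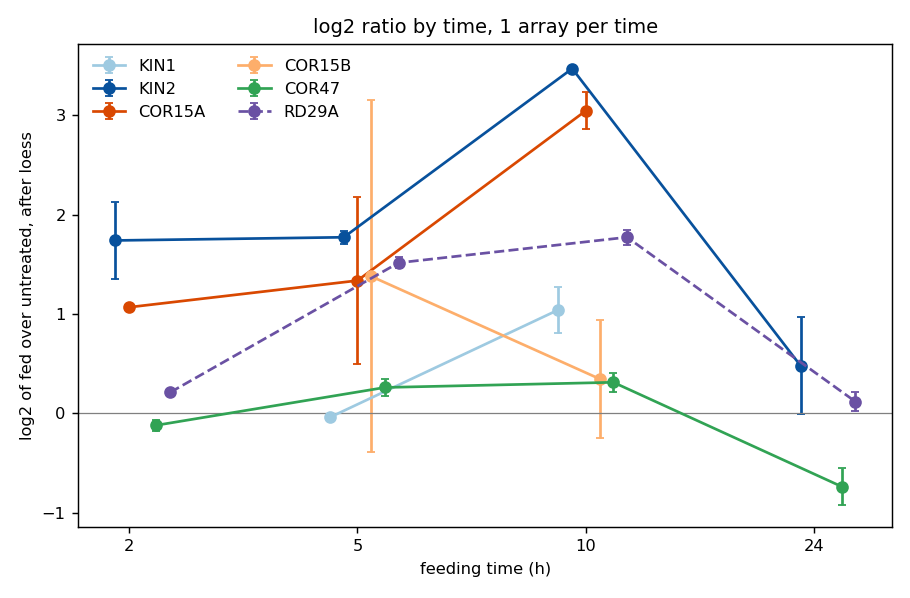
Log2 ratio of fed over untreated plants after loess, by feeding time in hours (times are evenly spaced on the axis and points are shifted sideways for clarity). Points are means over the spots of a clone on 1 array, bars are the SD between 2 spots, and a point without a bar rests on 1 spot or has an SD smaller than its symbol. KIN2 and COR15A stand highest at 10 h, at 3.47 and 3.05, and COR47 stays close to 0 until 10 h.

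The 10 h ratio of KIN2 rests on an untreated signal not above background, as given above. That of COR15A rests on an untreated signal above background in 1 of 2 spots. Untreated KIN2 was also above background in only 1 of 2 spots at 5 h and at 24 h, as was untreated COR15A at 5 h. The steps to and from 10 h are thus limited by dim untreated signal at both ends. Between 5 h and 10 h the log2 ratio of KIN2 went up by 1.70 and that of COR15A by 1.71, which ranked 7th and 6th among 713 clones with both values. Of these clones, 40.7% were higher at 10 h than at 5 h and 4.91% were so by at least 2-fold. On the log2 level scale, after quantile scaling of the average intensities between arrays, the fed level of KIN2 went up by 1.90 and its untreated level by 0.20, and that of COR15A by 1.85 and 0.14. From 10 h to 24 h the log2 ratio of KIN2 went down by 2.99, the third steepest drop among 652 clones, of which 44.3% were lower at 24 h and 8.28% at least 2-fold lower. Its fed level changed by -2.32 and its untreated level by 0.67. With 1 array per time these steps have no test. They kept their direction under every alternative that gave a value, at 0.85 to 2.17 for the KIN2 step to 10 h and -3.64 to -1.85 for the step to 24 h. The change of KIN2 from 2 h to 5 h was 0.03 and its sign varied with the setting.

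The highest of 4 times was 10 h for KIN2, as for 22.1% of the 607 clones with values at all 4 times. For COR15A, 10 h was the highest of 3 times, as for 29.0% of 655 clones. A steady trend on log2 of hours did not pass for either gene. The slope per doubling of time was -0.20 ± 0.33 for KIN2 (limma adjusted p = 0.917) and 0.82 ± 0.30 for COR15A, whose 3 times end at 10 h (unadjusted p = 0.0362, limma adjusted p = 0.478). No clone on the array passed that test at an adjusted p under 0.05 (0 of 716 in limma), and 67 (9.36%) did so at an unadjusted p under 0.05.

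**Figure D3:**
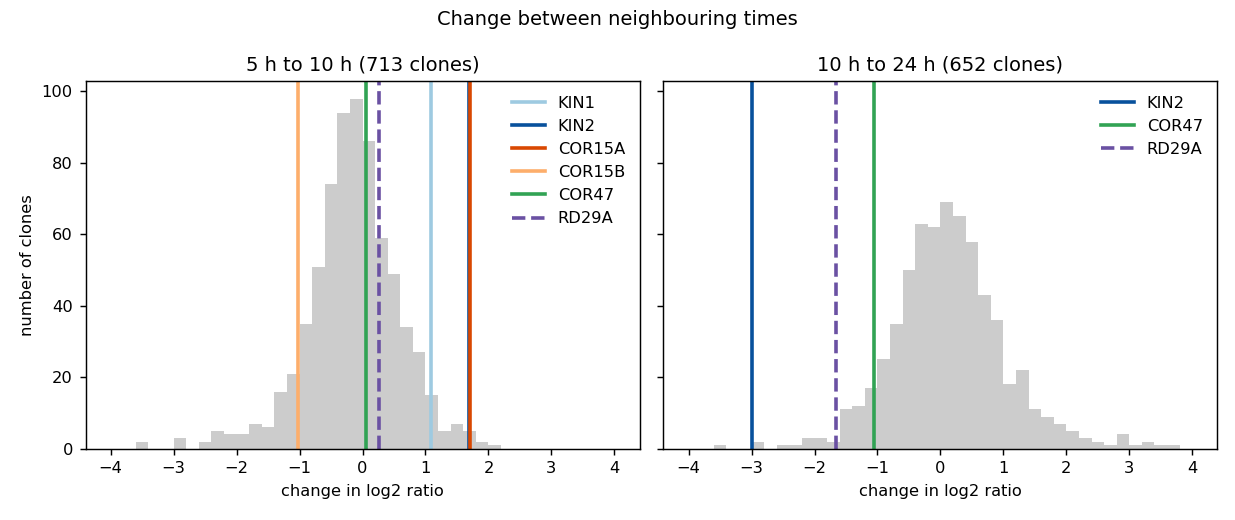
Histograms of the change in log2 ratio between neighbouring times over all clones with both values (713 clones from 5 h to 10 h, 652 from 10 h to 24 h), with vertical lines for the 5 genes and for RD29A. The KIN2 and COR15A lines nearly coincide at 1.70 and 1.71 in the right tail of the first panel, and KIN2 lies in the left tail of the second, at -2.99.

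COR47 gave steady duplicate spots in both dyes. Untreated plants read 990 and 1033 at 2 h, 1885 and 1737 at 5 h, 530 and 517 at 10 h, and 932 and 760 at 24 h. Fed plants read 1036 and 1019 at 2 h, 3515 and 3555 at 5 h, 924 and 1016 at 10 h, and 577 and 578 at 24 h. Before loess, the channels overlapped at 2 h and the fed channel was the brighter at 5 h and 10 h. The untreated channel was the brighter at 24 h. After loess the log2 ratios were -0.12 ± 0.06 at 2 h, 0.26 ± 0.09 at 5 h, 0.31 ± 0.09 at 10 h and -0.74 ± 0.18 (SD of 2 spots) at 24 h. The mean was -0.07 ± 0.23 (moderated SE, 4 arrays, 95% interval -0.63 to 0.48, limma adjusted p = 0.815), positive on 2 of 4 arrays. That interval leaves out a 2-fold change of the mean in either direction, relative to the middle clone. The slope per doubling of time was -0.15 ± 0.18 (limma adjusted p = 0.865).

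Whether KIN2 and COR47 differed was asked within each array, which removes a zero point that is the same for all clones. The loess curve varies with brightness and does not cancel. It was -0.04 for KIN2 and 0.16 for COR47 at 2 h, and 0.51 and 0.27 at 24 h. KIN2 exceeded COR47 by 1.86 at 2 h, 1.51 at 5 h, 3.16 at 10 h and 1.22 at 24 h on the log2 scale, a mean of 1.94 (SD 0.86). The order was the same on 4 of 4 arrays, and the exact two-sided sign-flip permutation test gave a p of 1 in 8, the smallest that 4 arrays allow. COR15A exceeded COR47 on 3 of 3 arrays by a mean of 1.67 (SD 0.93), with an exact permutation p of 0.25, the smallest for 3 arrays. KIN2 exceeded COR15A by 0.67, 0.44 and 0.42 at 2, 5 and 10 h, again on 3 of 3 arrays (exact permutation p = 0.25). Adjusted over these 3 comparisons, every p was 0.25, and with so few arrays this test cannot go below 0.05.

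**Figure D4:**
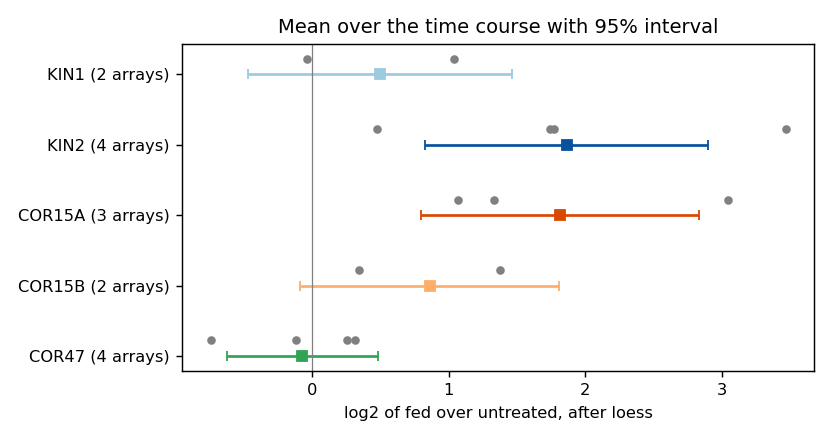
Mean log2 ratio of each gene over the time course (squares) with the moderated 95% interval (bars) and the value of each array (grey points). The intervals of KIN2 (0.83 to 2.90) and COR15A (0.80 to 2.84) lie above 0, and those of COR15B, KIN1 and COR47 include 0.

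KIN1 could be used on 2 arrays, with 1 spot at 5 h and 2 spots at 10 h. Untreated plants read 80 at 5 h and 49 and 70 at 10 h, and fed plants read 268 at 5 h and 721 and 632 at 10 h. The fed signal was therefore well over that of the negative controls on the 10 h array (-63 to 39), while the untreated signal was not above background at either time. KIN1 had a log2 ratio of -0.04 at 5 h and 1.04 ± 0.23 (SD of 2 spots) at 10 h. Under this correction the fed level at 10 h was 1.61-fold over the lowest untreated level of any clone counted as above background. That level is not the detection limit of the KIN1 spots, so 1.61-fold is not a firm minimum. With print-tip loess the 10 h log2 ratio was 0.53, which is under that fold. The mean was 0.50 ± 0.38 (moderated SE, 2 arrays, 95% interval -0.47 to 1.47, limma adjusted p = 0.323).

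The KIN1 ratio depended on the correction applied to dim spots. Before loess it was 1.33 at 5 h and 2.67 at 10 h, and the loess curve took away 1.37 and 1.63. With the arrays centred on the median clone the mean was 1.28 (limma adjusted p = 0.0450). With low-quality spots kept, which gave KIN1 a value on all 4 arrays, it was 1.40 (limma adjusted p = 0.00389).

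COR15B was likewise usable at 5 h and 10 h only. Untreated plants read 33 and 83 at 5 h and 24 and 15 at 10 h, the latter inside the range of the negative controls of that array (-11 to 38). Fed plants read 227 and 1360 at 5 h and 377 and 566 at 10 h. On the 10 h array both fed spots thus lay above all 26 negative controls, while the untreated spots could not be told from them. At 2 h the fed spots read -5 and 11, within the negative controls of that array (-12 to 57), and at 24 h they read 47 and 19, 1 within and 1 just above (-20 to 31).

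After loess COR15B stood at 1.38 ± 1.77 at 5 h and 0.35 ± 0.60 (SD of 2 spots) at 10 h. At 5 h its spots gave 0.12 and 2.63, and the fed signal was above background in the second only. The averaged fed level at 5 h was 1.86-fold over the floor of that array, the lowest untreated level of any clone counted as above background. The ratio of the first spot was under 1.86-fold, so that is not a firm minimum. No such fold can be given at 10 h, since the fed level there lay under the floor. The mean of 0.86 ± 0.37 (moderated SE, 2 arrays, 95% interval -0.09 to 1.81) did not pass (limma adjusted p = 0.114). Before loess the ratio was 2.57 at 5 h and 2.78 at 10 h, and the curve took away 1.19 and 2.43. With low-quality spots kept in the loess fit, the 10 h value was 2.1. Centred on the median clone, the mean was 1.95 (limma adjusted p = 0.00380). For KIN1 and COR15B the size of the change is thus set by the correction, while the fed signal above the negative controls at 10 h is read before it.

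Of the 5 genes, 2 (KIN2 and COR15A) passed the test of the mean, both higher in fed plants, where 22.6% of all 806 clones passed as higher, 24.4% as lower and 47.0% in either direction. The median of the 5 means was 0.86, against -0.04 for all tested clones. That median is the mean of COR15B, which like KIN1 was tested through its fed signal only. KIN2 ranked 57th and COR15A 61st from the top of the 806, and 12th and 15th among the 248 named clones tested. At each time a gene was counted when its mean ratio was at least 2-fold and its usable spots had the same sign. Its brighter dye also had to be above background in 50% or more of those spots. At 2 h, 2 of 3 measured genes were higher by that rule (19.5% of clones), at 5 h 3 of 5 (19.0%), at 10 h 3 of 5 (21.8%) and at 24 h 0 of 2 (19.5%). None of the 5 was called 2-fold lower at any time at which it had a value. That call needs the untreated dye above background, which KIN1 and COR15B lacked at 5 h and 10 h and KIN2 at 10 h. Those values could not have been counted as lower. Of all clones, 12.5%, 15.8%, 22.3% and 16.0% were called lower at 2, 5, 10 and 24 h. These genes were chosen with earlier results known, so the counts describe them and do not show that the family stands apart.

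Every ratio moves with the choice of zero point, and the array offers controls as an alternative. Set against its lambda DNA spots, the middle tested clone itself had log2 values of 0.70, 1.79, 1.10 and 1.26 in order of feeding time. On that scale KIN2 stood at 2.42, 3.50, 4.41 and 1.95 and COR47 at 0.76, 2.01, 1.31 and 0.49. Relative to the alpha tubulin spots, the middle clone had values of 0.84, 1.31, 0.94 and 1.71, KIN2 at 2.57, 3.02, 4.25 and 2.40, and COR47 at 0.91, 1.53, 1.15 and 0.94. COR47 then counted as higher, with a mean of 1.14 against lambda DNA (limma adjusted p = 0.00283). The peak of KIN2 and COR15A at 10 h held under each of these zero points, whereas COR47 at 24 h was above 0 against either control and below 0 relative to the other clones.

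**Figure D5:**
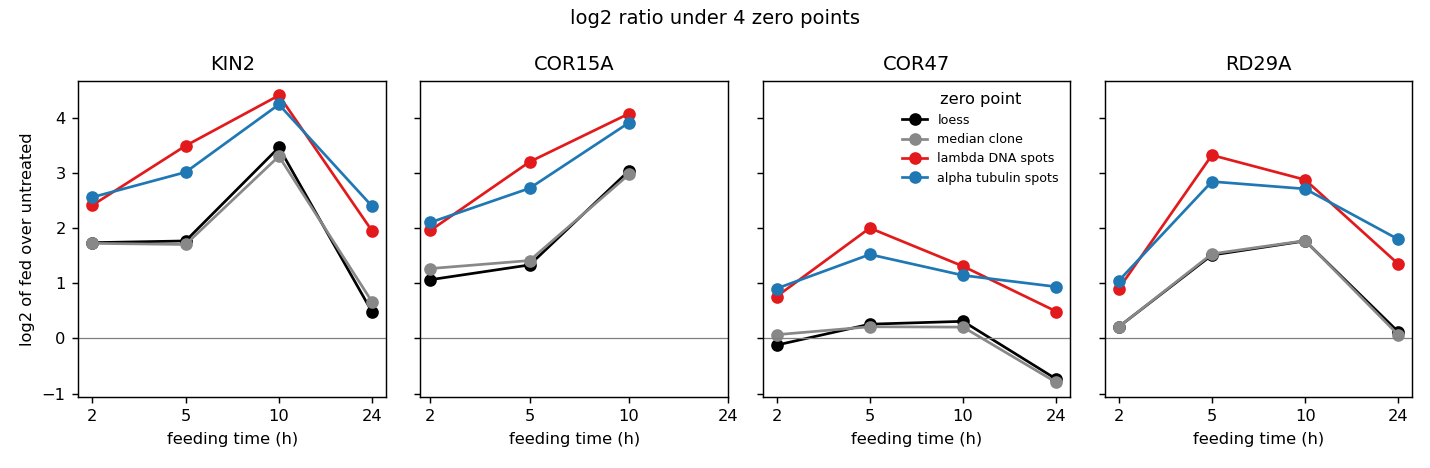
Log2 ratio of fed over untreated plants by feeding time in hours (evenly spaced on the axis) for KIN2, COR15A, COR47 and RD29A under 4 zero points: loess, the median clone, the lambda DNA spots and the alpha tubulin spots. KIN2 peaks at 10 h on all lines (3.47 after loess, 4.41 against lambda DNA), and COR47 lies above 0 at every time against either control.

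The array also carried 9 probes spotted under a gene symbol in place of a clone name, and these were outside the 1182 clones. They included RD29A, a hydrophilic protein gene whose promoter is the textbook example of the C-repeat and ABA-responsive elements. Untreated plants read 387 and 378 at 2 h, 709 and 694 at 5 h, 447 and 369 at 10 h, and 501 and 382 at 24 h for RD29A. In fed plants RD29A read 433 and 421 at 2 h, 3750 and 3440 at 5 h, 2800 and 2241 at 10 h, and 632 and 537 at 24 h. Before loess, fed and untreated readings thus lay close together at 2 h and 24 h and wide apart at 5 h and 10 h. Both dyes were above background on all 4 arrays.

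The log2 ratio of RD29A was 0.21 ± 0.01 at 2 h, 1.51 ± 0.06 at 5 h, 1.77 ± 0.08 at 10 h and 0.12 ± 0.09 (SD of 2 spots) at 24 h. Its mean was 0.90 ± 0.33 (moderated SE, 4 arrays, 95% interval 0.12 to 1.68), which did not pass when these probes joined the clones (limma adjusted p = 0.0594 among 809 features). From 10 h to 24 h it went down by 1.66, as KIN2 did by 2.99. RD29A was already high at 5 h, and whether 5 h or 10 h was its highest time varied with the zero point, since against lambda DNA it stood at 3.33 and 2.88. The mean of RD29A passed under 9 of 19 alternatives, print-tip loess among them (limma adjusted p = 0.0451).

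ERD8, named for an early response to dehydration and described here after its values were seen, was another of these probes. Relative to the middle clone its log2 ratio was -0.44, -0.90, -0.36 and -1.45 at 2, 5, 10 and 24 h, and its mean of -0.79 ± 0.24 (moderated SE, 4 arrays) passed as lower in fed plants (limma adjusted p = 0.0326 among 809 features). Before that correction the fed spots were dimmer than the untreated ones at 2, 5 and 24 h and brighter at 10 h, at 654 and 756 against 611 and 703. ETR1, an ethylene receptor gene and the third of the 9 probes with usable spots, had a mean of -0.30 ± 0.20 (limma adjusted p = 0.247).

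Other genes of the cold, drought and abscisic acid response were few on this array. Of 34 listed effector genes besides the 5, 3 were present (RD29A, RD29B and ALDH7B4), 2 were tested and 1 rose. ALDH7B4, an aldehyde dehydrogenase induced by dehydration, had log2 ratios of 0.63, 1.46, 2.01 and 1.96 at 2, 5, 10 and 24 h and a mean of 1.51 ± 0.27 (moderated SE, 4 arrays, limma adjusted p = 0.00481). Unlike KIN2, its 24 h value stayed close to its 10 h value. This list was drawn up with earlier results known.

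Of 28 listed regulators, 4 were present, 1 was tested and 0 passed. STZ, a zinc finger transcription factor, had a mean of 0.81 ± 0.34 (moderated SE, 3 arrays, limma adjusted p = 0.0961). DREB1A (CBF3) and DREB1C (CBF2), the cold factors that act on the COR genes, and ABI3, a seed factor of abscisic acid signalling, had no usable spot. In fed plants DREB1A read between -21 and 136 and DREB1C between -31 and 23 over the 4 arrays, and neither was above background in either dye on any array. Nor was RD29B, an abscisic acid-inducible relative of RD29A, whose fed spots read between -19 and 25. A change in these transcripts was thus not detectable at this signal.

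Named clones whose values ran closest to each gene were found by the root mean square difference in log2 ratio. For KIN2 over 4 arrays, the closest of 178 named clones were AT5G35735 at 0.79, AT4G20830, a berberine bridge enzyme-like oxidase, at 0.82, and OPCL1, a ligase of jasmonate synthesis, at 0.84. AT2G18690 followed at 0.88 and the lectin gene JAL34 at 0.93. At 10 h the first 4 stood at 1.90 to 2.15, under KIN2, while JAL34 stood at 3.46 and remained at 1.94 at 24 h. For COR15A over 3 arrays, the closest of 195 was KIN2 at 0.52, followed by ALDH7B4 at 0.66, NAI2 and OPCL1 at 0.73 each and AT5G35735 at 0.76. The RMS difference of RD29A was 0.89 from COR15A and 1.16 from KIN2.

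COR47 ran closest to AT4G26910, at 0.10 over 4 arrays, with log2 ratios of -0.03, 0.11, 0.23 and -0.72 at 2, 5, 10 and 24 h. Next came RD2, a desiccation-responsive gene, at 0.28, AT3G48080 at 0.30, AT5G45490 at 0.33 and the immune kinase gene BIK1 at 0.38. Clones close to a gene by this measure share its height as well as its course. The clones share arrays and dyes, so these likenesses describe the 4 arrays and carry no test.

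Array-wide values bear on these results as follows. Clones with a usable ratio numbered 718, 857, 739 and 718 at 2, 5, 10 and 24 h, and their log2 ratios spread most widely at 10 h (SD 1.60, against 1.11 to 1.29 at the other times). The 10 h values of KIN2 and COR15A therefore come from the array with the widest spread, and its part in their peak was not tested. Per the file headers, the detector gain was 69 for Cy3 on every array and 58, 65, 60 and 60 for Cy5. None of the spots of the 5 genes was saturated. Tissue markers could not check the label, since 0 of 6 listed leaf genes and 1 of 3 root genes (PYK10, log2 mean 1.13 ± 0.48, limma adjusted p = 0.0931) were on the array.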

How the data were processed

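The members and gene lists were chosen with earlier results of these data known. The deposited scanner files give, for each dye, the linear intensity of a spot and of its surroundings, and the percent of its pixels that were saturated. Per the labels, the authors took the median over the pixels of each spot with ScanArray Express. Each array held 2560 spots, of which 2366 were spots of 1182 clones. The scanner's flag 3 was read as a good spot, and spots with other flags were left out. The limma package (3.58.1, in R 4.3.3) removed background by normexp (offset 50), Cy5/Cy3 ratios were loess-normalized array by array (control spots at weight 0), and spots of a clone were averaged. Levels of each dye came from quantile scaling of the average intensities between arrays. A feature was tested when, on 2 or more arrays, 50% or more of its usable spots exceeded background by 2 background SD in either dye. The mean over the arrays and the slope on log2 hours (at least 3 arrays) were fitted in limma over all clones with eBayes and Benjamini-Hochberg adjustment at 0.05. The p-values rest on the spread between 4 times, each a single array of pooled plants.

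The comparison of KIN2 with COR47 was planned as an exact sign-flip test, and those with COR15A were added later. The named genes were the 5 members, the 5 named clones closest to each member with values on at least 3 arrays, and every measured gene of the lists. The 9 probes named by gene symbol were added after the data were seen. They hold 18 spots, and 10 more spots bear bare numbers and were not used. Names were taken from the table of the platform (416 of 1196 probes have 1 symbol, 0 have several), of which 415 matched TAIR10.1 by identifier. Coordinates are left out, the genome build of the clones being unstated. A planned comparison of promoters and proteins was not made.

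The authors' deposited value table gives natural log values per clone, with scale, centring and direction unstated. Against the natural log of the scanner's ratios its slopes were 0.988, 0.984, 0.968 and 0.962 and its correlations 0.998, 0.997, 0.992 and 0.994, so the natural log of Cy5 over Cy3 was assumed. The medians of its columns, as natural logs, were 0.301, 1.20, 0.614 and 0.861, the lambda DNA row was 0, and 8 values at the floor at 10 h were left out. This table served as an alternative only. The image folder names in the file headers place 2 h and 5 h on slide 1 and 10 h and 24 h on slide 2. Simulated data with known changes tested the scripts.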

Additional observations from a re-analysis of the deposited data

Results flagged for a closer look

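Some spots of the genes gave a fed signal above background although the scanner's flag kept them out of the ratios. At 24 h the left-out KIN1 spots read 177 and 255 in fed plants and 48 and 11 in untreated plants. COR15A read 204 in the left-out spot at 2 h, against 80 in untreated plants, and 204 and 216 in its left-out spots at 24 h, against 129 and 163. Before loess the fed channel was the brighter in all 5, and untreated plants were not above background in any of them. After loess all 5 lay below 0, at -1.17 and -0.36 for KIN1 at 24 h, -0.72 for COR15A at 2 h, and -1.07 and -1.01 for COR15A at 24 h. Negative control spots of these arrays reached 57 at 2 h and 31 at 24 h in the fed channel.

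RD29A, a probe outside the clones, had log2 ratios of 1.51 at 5 h and 1.77 at 10 h in spots that were bright in both dyes.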

How the results depend on the processing

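The mean of KIN2 was positive under all 20 alternatives (1.20 to 3.24) and that of COR15A under all 19 (1.20 to 3.31), and KIN2 exceeded COR47 under all 18 run (1.40 to 2.31). COR47 turned positive under print-tip loess (0.15), on the slide of 2 h and 5 h (0.069), without the 24 h array (0.15), and against lambda DNA (1.14), alpha tubulin (1.13, limma adjusted p = 0.00377) and in the deposited value table (0.98, limma adjusted p = 0.0298). In these last 3 all 5 genes passed, with KIN1 at 2.73, 2.41 and 2.67, COR15B at 3.40, 3.08 and 3.20, and 13 values at least 2-fold higher in place of 8. Median centring passed 4 genes (KIN1 1.28, COR15B 1.95). Keeping low-quality spots passed KIN1 (1.40) and gave COR15A a trend of -0.11. Requiring both channels above background left 5 such values. No gene passed without the 5 h array (KIN2 1.90, COR15A 2.06) or, for KIN2 (1.97), on the slide of 10 h and 24 h, where 161 clones passed. On the slide of 2 h and 5 h, 206 did.

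Leaving out 1 array gave 222 (without 5 h) to 320 (without 24 h) clones and 0 to 2 genes past the test, KIN2 means of 1.33 to 2.33, COR15A of 1.20 to 2.19 and COR47 of -0.20 to 0.15. Trends then passed for 0 to 56 clones, the 56 without 24 h. The KIN2 trend ran from -0.65 to 0.71 and that of COR47 from -0.46 to 0.19, both highest without 24 h. Trends passed for 2 clones against alpha tubulin, where the KIN2 trend was 0.051, and for 1 clone each in the value table and with an intensity trend. The cause of these shifts was not tested. With the slide as a block, KIN2 (1.86, limma adjusted p = 0.00271) and COR15A (2.12, limma adjusted p = 0.000246) still passed. No paired analysis was possible because fed and untreated plants share no replicate numbers, and each log ratio already compares them within an array. Signal limits KIN1 and COR15B, and 1 array per time limits every statement about a single time.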
